A study of Oryctolagus cuniculus with 6 samples.

Results

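The genes described here encode the ligands, receptors and intracellular SMAD proteins of the transforming growth factor beta (TGF-beta) and bone morphogenetic protein (BMP) family, with antagonists and a few relatives, measured in rabbit skull defects that were filled with a dentin graft or left empty. They were chosen as the array probes whose description names a bone morphogenetic protein, transforming growth factor beta, growth differentiation factor, SMAD family member, inhibin, activin, noggin, gremlin or follistatin. This took 91 of 43603 probes, which fall into 39 genes, and 35 of these genes had a signal well above background on 3 or more of the 6 arrays, as did 20217 of 23367 features (genes or unnamed transcripts) in all. No probe of gremlin or follistatin itself carried a matching description, and the follistatin-related genes found are FSTL1, FSTL5, TMEFF1 and TMEFF2.

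Male New Zealand White rabbits, 4 months old and 24 in number, had 4 round defects 5 mm wide made in the parietal bone. In the HPD group, 0.2 g of human particulated dentin (HPD, a graft of ground human tooth) filled the defects on the right. In the control group, defects stayed empty. Tissue newly formed in the defects was taken on days 3, 5 and 7, with 1 array per treatment and day, so that the groups are HPD day 3, HPD day 5, HPD day 7, control day 3, control day 5 and control day 7 (n = 1 each). HPD and control defects lay in the same skulls, all animals shared the surgery, and whether RNA of several animals was pooled is not given in the sources used here. All values are log2 array signal minus the array's 75th percentile (scaled log2 signal), so 0 is the level of that percentile, and a difference of 1 is a 2-fold difference. A standard error (SE) comes from a limma fit of day and treatment over all 6 arrays, and an adjusted p is that fit's Benjamini-Hochberg value over all 20217 features.

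TGF-beta family ligands are secreted dimers that bring together type I and type II receptor kinases on the cell surface. The type I receptor then phosphorylates SMAD proteins, which join SMAD4 and enter the nucleus: SMAD2 and SMAD3 for TGF-beta and activin, and SMAD1, SMAD5 and SMAD9 for BMPs. BMPs were found by their ability to induce bone, and TGF-beta 1 is stored in bone matrix and released by platelets and resorption. Decoys and secreted antagonists restrain these signals: BAMBI dampens both branches, and noggin binds BMPs.

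The probes below are those on which the results mainly rest, so that a reader can see what each spot detects. They are 60 bases long and are printed 5′ to 3′ as the array files give them. Capitals mark the bases that all overlapping probes of the same site share, and a probe that is alone on its site is in lower case throughout. Genome positions follow the array files and refer to the build oryCun2. The BAMBI probe lies at chr16:6212037-6212096 (minus strand), BMP4 at chr17:72720966-72721025 (minus), BMP2 at chr4:29449448-29449507 (minus), INHBA at chr10:24692315-24692371 (minus), BMP5 at chr12:45671694-45675250 (minus, with a gap between its aligned parts) and FSTL1 at chr14:98435473-98435532 (plus). The files leave the BMP7 and TGFB1 probes unmapped.
BAMBI: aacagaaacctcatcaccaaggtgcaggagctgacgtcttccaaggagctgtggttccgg
BMP4: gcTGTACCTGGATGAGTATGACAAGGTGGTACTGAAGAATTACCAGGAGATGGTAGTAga
BMP2: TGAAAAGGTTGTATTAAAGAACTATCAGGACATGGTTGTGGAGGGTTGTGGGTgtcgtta
INHBA: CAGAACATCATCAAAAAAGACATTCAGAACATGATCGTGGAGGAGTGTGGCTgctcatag
BMP5: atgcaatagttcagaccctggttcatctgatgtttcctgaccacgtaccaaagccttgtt
BMP7: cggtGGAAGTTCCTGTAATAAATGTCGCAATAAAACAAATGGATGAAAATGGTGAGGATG
TGFB1: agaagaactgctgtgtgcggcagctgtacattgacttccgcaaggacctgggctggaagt
FSTL1: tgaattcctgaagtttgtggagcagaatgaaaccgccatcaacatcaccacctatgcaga
The INHBA probe ends in the stop codon of an open reading frame. Of the 91 probes, 15 are unmapped in the files and 11 span more than 60 bases of the genome. The 91 probes cover 53 separate sites, since probes of 1 gene often overlap, so they are repeated readings of a site rather than independent ones. No probe shares a run of 20 bases with a probe of another gene of the family.

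Between 78.1% and 86.4% of the spots on an array were well above background, 0 spots were saturated, and the arrays correlated with each other at 0.938 to 0.984. Both day 3 arrays were on 1 slide and the other 4 arrays on another, so day 3 and its slide cannot be told apart in a comparison over time, while each HPD and control pair shared a slide. The tissue label was checked against osteoblast markers, of which 8 of 10 were named on the array, all 8 well above background. The osteoblast secretory genes COL1A1 (bone collagen) and SPP1 (osteopontin) were far above the 75th percentile on every array, at 4.03 to 6.48 and 6.53 to 8.51 in scaled log2 signal.

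Filled and empty defects were compared to ask what the graft altered in the new tissue. Across the 3 days no gene of the family passed the test for an HPD effect: 0 of 35 were called, as were 0% of all features, and the smallest adjusted p among the 35 was 0.557. At an unadjusted p under 0.05, 1 of the 35 was higher (ACVR1C) and 0 were lower, against 7.11% and 1.40% of all features. The median HPD effect of the 35 was 0.17 and that of all features 0.09. In whole tissue, fewer cells of a type and less RNA per cell cannot be told apart, here and in all that follows.

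The days differed from each other more than their mean shows. On day 3, 28 of the 34 genes whose signal both arrays measured well above background were higher with HPD than in control, which is 82.4% against 64.1% of all features. On day 5, 16 of 34 were higher, or 47.1% against 59.3%, and on day 7, 24 of 34, or 70.6% against 58.9%. Across the other scalings, background correction and probe averaging, 26 to 30, 8 to 13 and 19 to 24 of the 35 were higher on days 3, 5 and 7. All features shifted under these settings too. On day 5 their median HPD difference was -0.10 with normexp background correction, where 8 of the 35 were higher. It was -0.04 when arrays were shifted by their median, where 9 were higher. The median HPD difference of the 35 genes was 0.38, -0.20 and 0.12 on days 3, 5 and 7, where all features had medians of 0.14, 0.09 and 0.06. At least 2-fold higher with HPD on day 3 were 2 of 34 genes (GDF2 and BMPR1B), against 3.58% of all features, and 0 were as much lower, against 2.90%. On day 5, 0 were 2-fold higher (against 4.89%) and 2, BAMBI and BMP4, 2-fold lower (against 1.68%). On day 7, 1 gene, BAMBI, was 2-fold higher (against 1.63%) and 0 were 2-fold lower (against 0.846%). There is no replicate within a treatment and day, so these single-day differences carry no test.

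**Figure D1:**
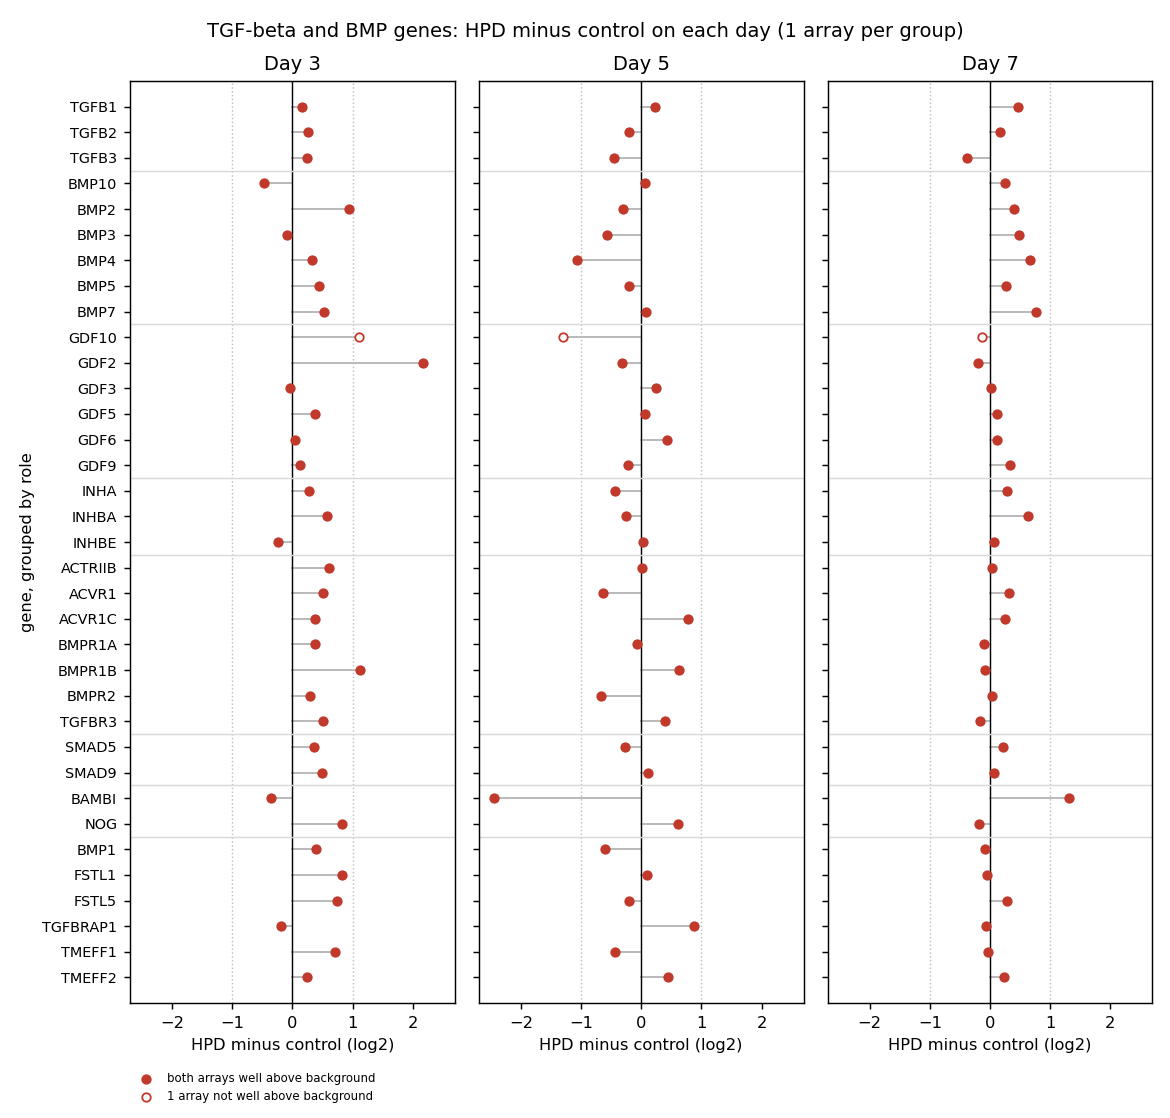
HPD minus control in scaled log2 signal for each of the 35 genes (rows, grouped by role) on days 3, 5 and 7 (panels). Each point is 1 pair of arrays, open points have 1 array not well above background, and dotted lines mark a 2-fold difference. Most points lie right of 0 on day 3 (28 of the 34 filled ones), BAMBI lies farthest left on day 5 at -2.44 and farthest right on day 7 at 1.31.

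The most frequent order of signs was higher with HPD on day 3, lower on day 5 and higher on day 7, found for 11 of 35 genes (31.4%) against 14.3% of all features. The 11 were the ligand genes BMP2, BMP4, BMP5, GDF9 and TGFB2, the activin and inhibin subunit genes INHBA and INHA, the receptor genes ACVR1 and BMPR2, the signal transducer gene SMAD5, and FSTL5, a follistatin-like gene. By comparison, 8 genes (22.9%, against 26.3% of all features) were higher with HPD on all 3 days and 0 (against 10.9%) were lower on all 3. Of the rest, 6 were higher on day 3 alone (against 11.3%), 4 lower on day 7 alone (against 12.5%), 3 lower on day 3 alone (against 11.1%), 2 higher on day 7 alone (against 4.65%) and 1 higher on day 5 alone (against 8.82%). The first count was 11 to 15 under the other scalings, background correction, filters and probe averaging, and 9 of the 11 genes had this order under every one of them, the exceptions being BMPR2 and GDF9. With normexp background correction the share among all features was itself 26.4%, against 15 of 35 genes (42.9%). The count of genes higher on all 3 days was 2 when arrays were shifted by their median, and 0 of the 8 genes had that order under every alternative.

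**Figure D2:**
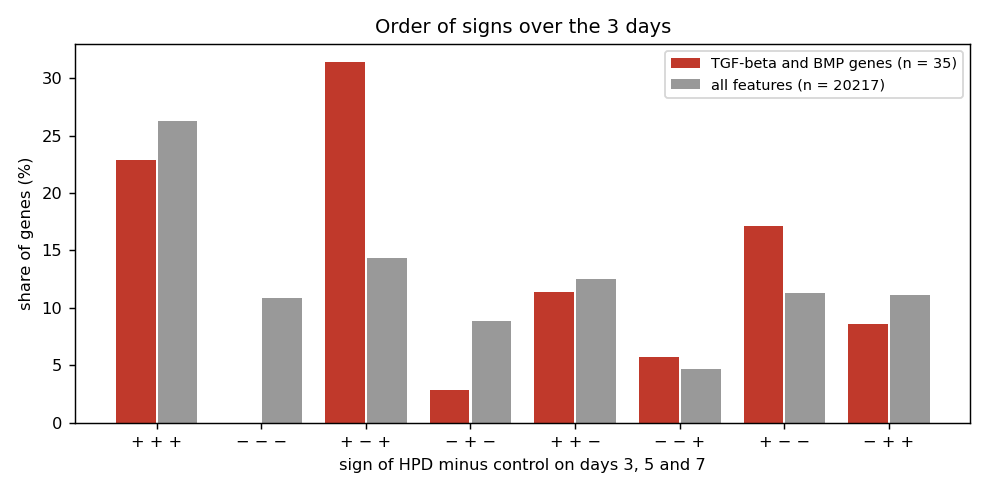
Share of genes (y axis, percent) with each order of signs of HPD minus control on days 3, 5 and 7 (x axis), for the 35 TGF-beta and BMP genes (left bars) and for all 20217 features (right bars). The order plus, minus, plus holds 31.4% of the family and 14.3% of all features.

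Osteoblast markers were likewise mostly lower with HPD on day 5 and higher on day 7. Of the 8 measured, 5, 2 and 8 were higher with HPD on days 3, 5 and 7, with median HPD differences of 0.11, -1.18 and 0.88, and the bone matrix gene IBSP (bone sialoprotein) stood at 0.17, -2.09 and 0.95. Their summed linear signal, in units of the array's 75th percentile, was 348, 410 and 467 in HPD arrays and 129, 473 and 267 in control arrays of days 3, 5 and 7. Most of that sum was SPP1, at 312, 363 and 285 in HPD arrays and 92.5, 311 and 178 in control arrays, and the other 7 markers summed to 36.5, 47 and 182 in HPD arrays and 36.1, 162 and 89.2 in control arrays. Neutrophil markers differed too, with 0, 4 and 5 of 5 higher and medians of -1.92, 0.67 and 1.36, and macrophage markers had 4, 5 and 3 of 5 higher with medians of 0.64, 1.1 and 0.37. Osteoclast markers had 5, 1 and 3 of 6 higher with medians of 1.16, -0.28 and -0.03. Red cell markers had medians of -1.93, 0.65 and 0.06 (0, 3 and 3 of 4 higher), and the 1 measured platelet marker stood at -1.18, -0.31 and 0.68. The part of these cell types in the values of the family was not tested.

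BAMBI, a membrane decoy that lacks a kinase domain and dampens TGF-beta and BMP signals, differed most between the treatments. It had 0.12, 0.11 and 2.57 in HPD arrays of days 3, 5 and 7, against 0.47, 2.55 and 1.26 in control arrays. The high arrays were control of day 5 and HPD of day 7, which were nearly level, while HPD was low on days 3 and 5. HPD minus control was therefore -0.35, -2.44 and 1.31, and BAMBI was the one gene of the 35 at least 2-fold lower with HPD on one day and at least 2-fold higher on another among the 34 measured above background on both arrays of a day. Its mean HPD effect of -0.49 ± 0.74 (SE, 6 arrays; adjusted p = 0.802) averages over these opposite values. It rests on 1 probe, and IBSP, DMP1 and PHEX, which build and regulate mineralised matrix, had differences of -2.09, -2.27 and -1.83 on day 5 and 0.95, 1.0 and 0.88 on day 7. COL1A1 had -1.26 on day 5 and 1.15 on day 7. SPP1 and the osteoblast transcription factor genes SP7 and RUNX2 had 0.22, 0.01 and -0.20 on day 5 and 0.68, 0.27 and 0.36 on day 7.

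Noggin, the secreted antagonist that binds BMPs outside the cell (NOG), had other signs than BAMBI. NOG had -2.03, -2.15 and -2.65 in HPD arrays and -2.86, -2.76 and -2.48 in control arrays of days 3, 5 and 7. It was 1.78-fold and 1.52-fold higher with HPD on the first 2 of these days and 0.885-fold on day 7, with a mean of 0.42 ± 0.24 (adjusted p = 0.577). With normexp these log2 differences were 0.50 on day 3 and 0.18 on day 5, in place of 0.83 and 0.61.

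Among the BMP ligands, 4, 2 and 6 of 6 measured genes were higher with HPD on days 3, 5 and 7, and on day 5 this was 1 of 6 with normexp or quantile normalization and 0 with the median shift. BMP4, a ligand of early bone repair and of skull development, had -0.65, -0.55 and 0.42 in HPD arrays against -0.97, 0.52 and -0.24 in control arrays of days 3, 5 and 7. HPD was thus higher on days 3 and 7 and lower on day 5, by log2 differences of 0.32, -1.07 and 0.66. All 5 BMP4 probes, which overlap at 1 site, gave the same signs on each day, with -1.1 to -0.97 on day 5 and 0.66 to 0.76 on day 7. Its mean HPD effect was -0.03 ± 0.38 (adjusted p = 0.981).

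BMP2, the osteoinductive ligand used clinically in bone grafting, had its largest difference on day 3. It stood at 2.19, 1.39 and 1.43 in HPD arrays and at 1.24, 1.69 and 1.02 in control arrays of days 3, 5 and 7. The HPD array of day 3 was the highest of the 6, and the fold over control was 1.93, 0.809 and 1.33. All 8 BMP2 probes, at 3 sites, were higher with HPD on day 3 (0.81 to 1.02) and lower on day 5 (-0.35 to -0.10), and 7 of 8 were higher on day 7. The mean effect was 0.35 ± 0.27 (adjusted p = 0.640).

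BMP7, another osteoinductive ligand, was higher with HPD on each day. It had -1.04, -0.39 and 0.27 in HPD arrays and -1.57, -0.47 and -0.49 in control arrays of days 3, 5 and 7. The day 5 arrays were nearly level, and the fold was 1.44, 1.06 and 1.69. Its 5 overlapping probes were all higher with HPD on each day, and the mean was 0.46 ± 0.18 (adjusted p = 0.557). When arrays were shifted by their median its day 5 difference was below 0.

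BMP5, a ligand needed for skeletal form in mice, had 2.30, 2.81 and 2.84 in HPD arrays and 1.85, 3.01 and 2.58 in control arrays. Both of its probes, at separate sites, were higher with HPD on days 3 and 7 and lower on day 5, by 0.44, -0.20 and 0.26 for the brighter one. BMP3, which antagonises osteogenic BMPs, stood at -0.08, -0.57 and 0.48, and a second probe that was likewise measured on all 6 arrays gave 0.33, -1.18 and 0.56. BMP10, a cardiac ligand, stood at -0.46, 0.06 and 0.25, and its second probe was not well above background on any array. For BMP6 a single array (HPD day 5) was well above background, at least 2.07-fold over control, and none of its other 4 probes was so on any array.

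**Figure D3:**
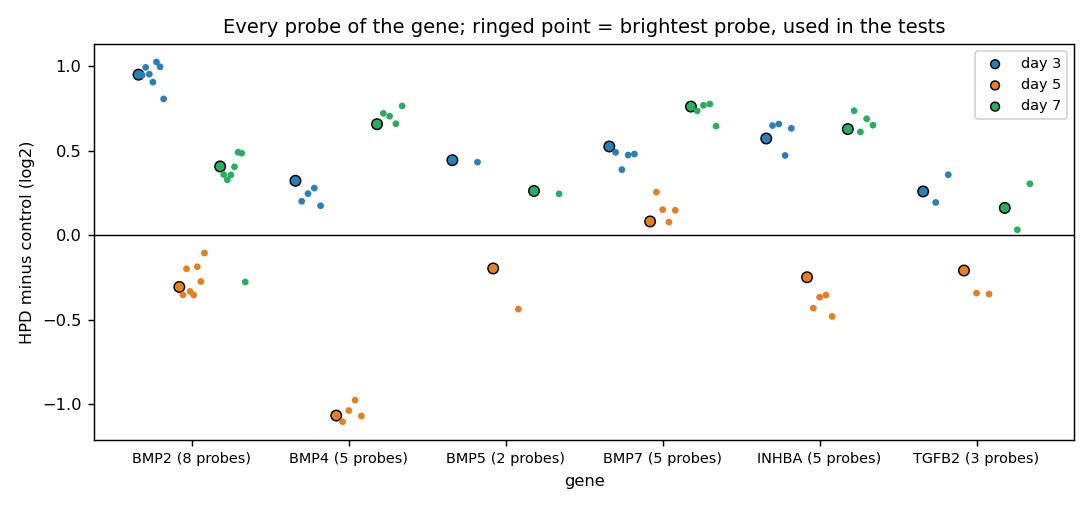
HPD minus control (y axis, log2) for every probe of 6 ligand genes with several probes (x axis), coloured by day. The ringed point is the brightest probe of a gene, used in the tests, and probes of a gene overlap, so they are not independent. The 5 BMP4 probes lie between -1.1 and -0.97 on day 5 and between 0.66 and 0.76 on day 7.

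Of the TGF-beta ligands, TGFB1, the main isoform of platelets and bone matrix, was higher with HPD on each day. It had -0.30, -0.99 and -0.85 in HPD arrays and -0.46, -1.22 and -1.31 in control arrays of days 3, 5 and 7. The fold was 1.11, 1.17 and 1.37, with a mean HPD effect of 0.28 ± 0.14 (adjusted p = 0.563), from 1 probe. TGFB2 stood at 0.26, -0.21 and 0.16, with all 3 probes giving these signs, and TGFB3, an isoform linked to palate closure and scarring, at 0.25, -0.45 and -0.39. The direction of TGFB1 held on all days under normexp and quantile normalization but not under the median shift.

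The activin A subunit gene INHBA, whose product acts in wound repair and on osteoclasts, had 2.82, 1.87 and 2.28 in HPD arrays and 2.24, 2.11 and 1.65 in control arrays of days 3, 5 and 7. HPD was higher on days 3 and 7 (1.49-fold and 1.55-fold) and lower on day 5 (0.842-fold), and 5 of 5 overlapping probes gave these signs. The mean effect was 0.32 ± 0.23 (adjusted p = 0.620). INHA, the inhibin alpha subunit that turns activin into its antagonist inhibin, stood at 0.28, -0.44 and 0.28. Of its 3 overlapping probes, 2, 0 and 3 were higher with HPD on days 3, 5 and 7. They ran from -0.17 to 0.28 on day 3 and from 0.02 to 0.28 on day 7. INHBE stood at -0.23, 0.04 and 0.07, and INHBC was not well above background on any array.

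Growth differentiation factor genes gave the largest single value of day 3. GDF2, which encodes the circulating ligand BMP9, had -2.43, -3.29 and -3.34 in HPD arrays and -4.60, -2.98 and -3.14 in control arrays. The control array of day 3 was the low one, so that HPD was 4.52-fold higher on that day and 0.806-fold and 0.870-fold on days 5 and 7. GDF2 has 1 probe, the day 3 difference was 0.89 in place of 2.18 with normexp, and the mean of 0.55 ± 0.56 (adjusted p = 0.704) turned to -0.26 without day 3. GDF5 and GDF6, which shape joints, stood at 0.38, 0.07 and 0.12 and at 0.04, 0.43 and 0.11. The oocyte factor gene GDF9 had 0.13, -0.22 and 0.33 and the embryonic factor gene GDF3 -0.04, 0.24 and 0.02. Each has 5 overlapping probes, which differed in sign. For GDF9, 4, 0 and 3 of 5 were higher with HPD on days 3, 5 and 7, and for GDF3, 2, 5 and 2 of 5. On day 7 the GDF3 probes ran from -0.49 to 1.84. GDF10, a BMP3 relative, was well above background on 3 arrays alone, the HPD array of day 3 and the control arrays of days 5 and 7. HPD of day 3 was at least 1.47-fold over control, and no fold is given for the other days, when control alone was measured.

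Receptor genes were higher with HPD on day 3 in 7 of 7 cases (6 where probes, those at background included, were averaged) and in 4 of 7 on each of days 5 and 7 (1 on day 5 with normexp, and 2 on day 7 with the median shift). ACVR1, a type I receptor for BMPs and activin, had -0.59, -0.71 and 0.27 in HPD arrays and -1.1, -0.07 and -0.05 in control arrays of days 3, 5 and 7. HPD was higher on days 3 and 7 and lower on day 5, by 0.51, -0.63 and 0.32 (mean 0.07 ± 0.27, adjusted p = 0.935). A second probe that the files leave unnamed but place on the same transcript, ENSOCUT00000002439, gave 0.61, -0.54 and 0.14. BMPR2, the type II receptor of BMPs, had 2.62, 2.50 and 3.31 in HPD arrays and 2.33, 3.17 and 3.27 in control arrays, with differences of 0.30, -0.67 and 0.03.

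The type I BMP receptor genes differed from each other. BMPR1B, needed for limb cartilage, had -4.03, -4.22 and -4.19 in HPD arrays and -5.16, -4.86 and -4.11 in control arrays, and was 2.18-fold, 1.55-fold and 0.946-fold on days 3, 5 and 7. Its mean of 0.56 ± 0.27 (adjusted p = 0.561) was the highest of the 35 genes, but the signal was dim, and with normexp the day 3 and day 5 differences were 0.28 and -0.11. A second, overlapping BMPR1B probe, well above background on 3 arrays, gave 0.72, 0.74 and 0.26. Its HPD signals of days 5 and 7, at -5.19 and -4.90, were below the lowest signals well above background on those arrays (-4.98 and -4.57). BMPR1A, the widely expressed receptor, stood at 0.38, -0.07 and -0.10. TGFBR3 (betaglycan), a coreceptor that presents TGF-beta 2, stood at 0.51, 0.40 and -0.16.

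ACVR1C, which encodes the type I receptor ALK7 for nodal and activins, had 1.09, 1.09 and 1.18 in HPD arrays and 0.71, 0.31 and 0.92 in control arrays of days 3, 5 and 7. The 3 HPD arrays were nearly level and all above the control arrays, by 0.38, 0.78 and 0.26 (mean 0.47 ± 0.17, unadjusted p = 0.0414 and adjusted p = 0.557 in limma). The value rests on 1 probe, at chr7:96337176-96337232 (minus strand), which ends in the stop codon of an open frame. Its sequence is printed here because the lowest unadjusted p of the family for an HPD effect comes from it. A second probe at another site was not well above background on any of the 6 arrays, and an average that includes it gave -0.07.
ACVR1C: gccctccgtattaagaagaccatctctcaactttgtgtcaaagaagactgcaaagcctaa
A type II activin receptor is named ACTRIIB in the files, which place it on chromosome 7 with ACVR1 and ACVR1C. In a RefSeq table of a later assembly (mOryCun1.1), ACVR2A shares a chromosome with those 2 genes and ACVR2B does not, and which receptor the probes measure was not tested. It stood at 0.61, 0.01 and 0.03. All 6 of its probes were higher with HPD on day 3, 1 of 6 on day 5 (-0.40 to 0.01) and 4 of 6 on day 7, while an unnamed probe placed on its transcript ENSOCUT00000016400 gave 0.59, 1.54 and 1.03. TGFBR2, the type II TGF-beta receptor, was clearly measured on 2 arrays, those of day 3, at -4.80 in HPD and -4.80 in control. ACVR1B, the main activin type I receptor, was at background on all 6.

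Of the BMP-branch SMAD genes with a matching description, SMAD5 stood at 0.35, -0.27 and 0.21 and SMAD9 at 0.50, 0.12 and 0.07 on days 3, 5 and 7. A second, overlapping SMAD9 probe measured on all 6 arrays gave 0.58, -0.30 and 0.72, so the sign of SMAD9 on day 5 depends on the probe. Genes named by description but with other roles were mixed. BMP1, a procollagen protease and no TGF-beta ligand, stood at 0.40, -0.60 and -0.08. FSTL5 stood at 0.74, -0.20 and 0.29, TMEFF1 at 0.70, -0.43 and -0.03, and the membrane protein gene TMEFF2 at 0.24, 0.45 and 0.24. Further TMEFF1 probes at other sites, measured on all 6 arrays, gave 0.09, 0.10 and -0.67, and 0.55, -0.64 and -0.44. The sign of TMEFF1 on day 5 thus depends on the probe. A second TMEFF2 probe measured on all 6 arrays gave -0.33, 0.22 and 0.30. TGFBRAP1, a receptor-associated vesicle protein, was the highest on day 5 at 0.88 (1.84-fold), between -0.19 on day 3 and -0.07 on day 7.

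**Figure D4:**
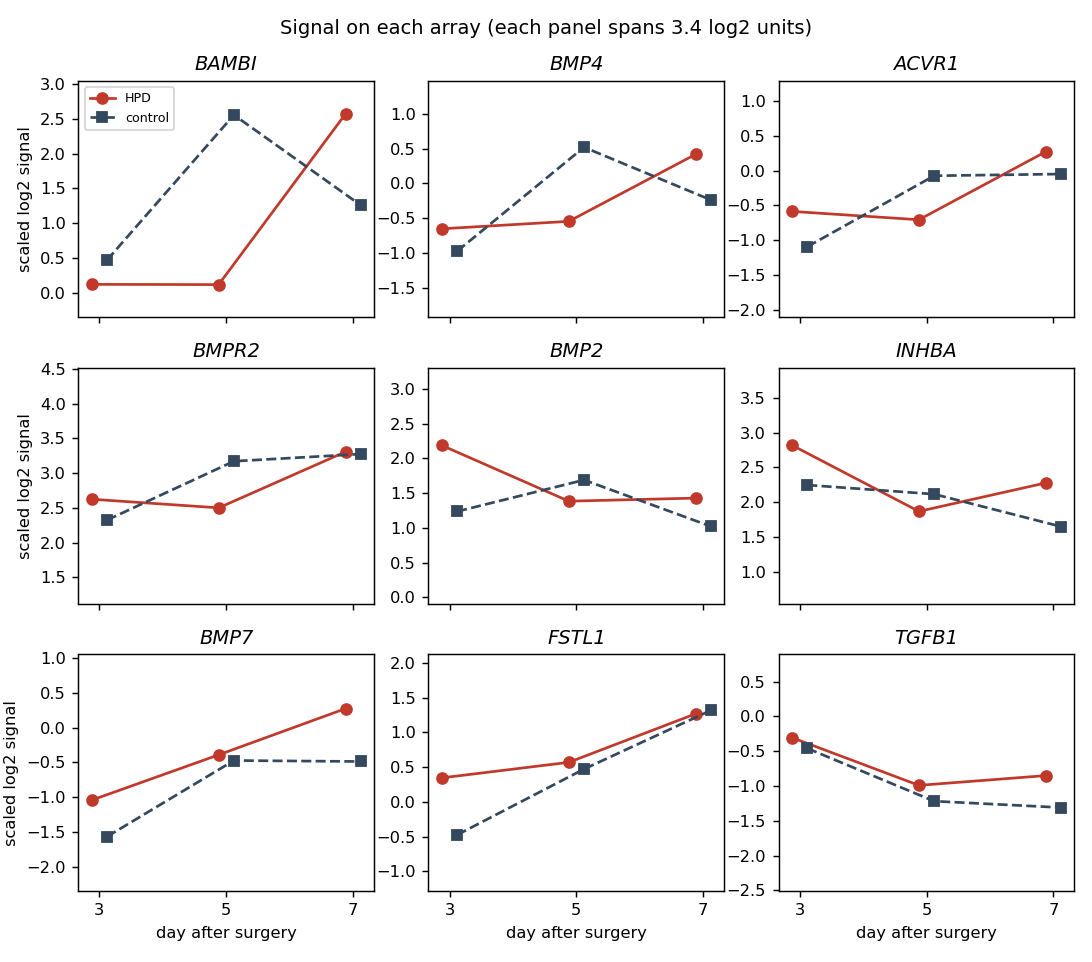
Scaled log2 signal (y axis, every panel spanning the same range) on each of the 6 arrays for 9 genes, by day after surgery (x axis), with HPD as circles and control as squares, 1 array per point. For BAMBI, BMP4 and ACVR1 the control array of day 5 lies above the HPD array of day 5, and the order is the opposite on day 7. BMP7 and TGFB1 are higher with HPD on each day.

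Days were compared over both treatments to follow the family through early healing. Here too no gene of the 35 was called for day 5 minus day 3, day 7 minus day 5 or day 7 minus day 3, where 0.00495%, 0% and 0.00495% of all features were, and the smallest adjusted p values of the 35 were 0.211, 0.605 and 0.127. At an unadjusted p under 0.05 for day 7 minus day 3, 7 of 35 were higher (20%, against 10.7% of all features) and 4 lower (11.4%, against 10.1%). For 14 genes both day 7 arrays lay above both day 3 arrays (40%, against 25.7%), and for 7 both lay below (20%, against 27%). These 7 were TGFB1, GDF5, GDF9, BMP10, SMAD9, TGFBRAP1 and TMEFF2.

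BMP7 and FSTL1 had the smallest adjusted p for day 7 minus day 3. BMP7 was 1.20 ± 0.23 higher on day 7 (2.30-fold, adjusted p = 0.127), by 1.32 in HPD and 1.08 in control arrays. FSTL1, a secreted glycoprotein of mesenchymal cells, had 0.34, 0.57 and 1.27 in HPD arrays and -0.48, 0.47 and 1.32 in control arrays of days 3, 5 and 7. It was 1.36 ± 0.27 higher on day 7 than on day 3 (2.56-fold, adjusted p = 0.134) and 0.77 ± 0.27 higher than on day 5 (adjusted p = 0.605), which is within 1 slide. With normexp both passed for day 7 minus day 3, at 0.96 for BMP7 (adjusted p = 0.0317) and 1.14 for FSTL1 (adjusted p = 0.0320), a setting that also put the median of all features at 0.17, against -0.01 without it. Both genes lay above the day 3 arrays on both later days in either treatment. At the FSTL1 site 5 unnamed probes read the opposite strand, and they were higher with HPD on day 3 as well, by 0.47 to 1.71, where FSTL1 had 0.82.

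Other genes with both day 7 arrays above both day 3 arrays were the ligand genes BMP3 (0.95 ± 0.29), BMP4 (0.90 ± 0.46) and BMP5 (0.63 ± 0.22), and the receptor genes ACVR1 (0.95 ± 0.33), BMPR2 (0.82 ± 0.28) and BMPR1A (0.38 ± 0.20). BAMBI had the largest difference, 1.62 ± 0.90 (adjusted p = 0.365), by 2.45 in HPD and 0.79 in control arrays, and without the HPD array of day 7 it was 0.27. INHA (0.70 ± 0.25), SMAD5 (0.40 ± 0.22), TMEFF1, GDF3 and GDF10 complete the 14, but GDF10 was at background on the control array of day 3 and the HPD array of day 7. Of the 7 that were lower, TGFB1 had the largest difference at -0.70 ± 0.17 (adjusted p = 0.156), with -0.55 in HPD and -0.85 in control arrays, followed by GDF5 at -0.69 ± 0.18 and GDF9 at -0.67 ± 0.21. With normexp these 3 were -0.50, -0.11 and -0.19. INHBA and BMP2 stood at -0.57 ± 0.28 and -0.49 ± 0.34 with overlapping arrays. BMP ligands had a median of 0.77 over 6 genes and receptors 0.38 over 7, against -0.01 for all features.

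**Figure D5:**
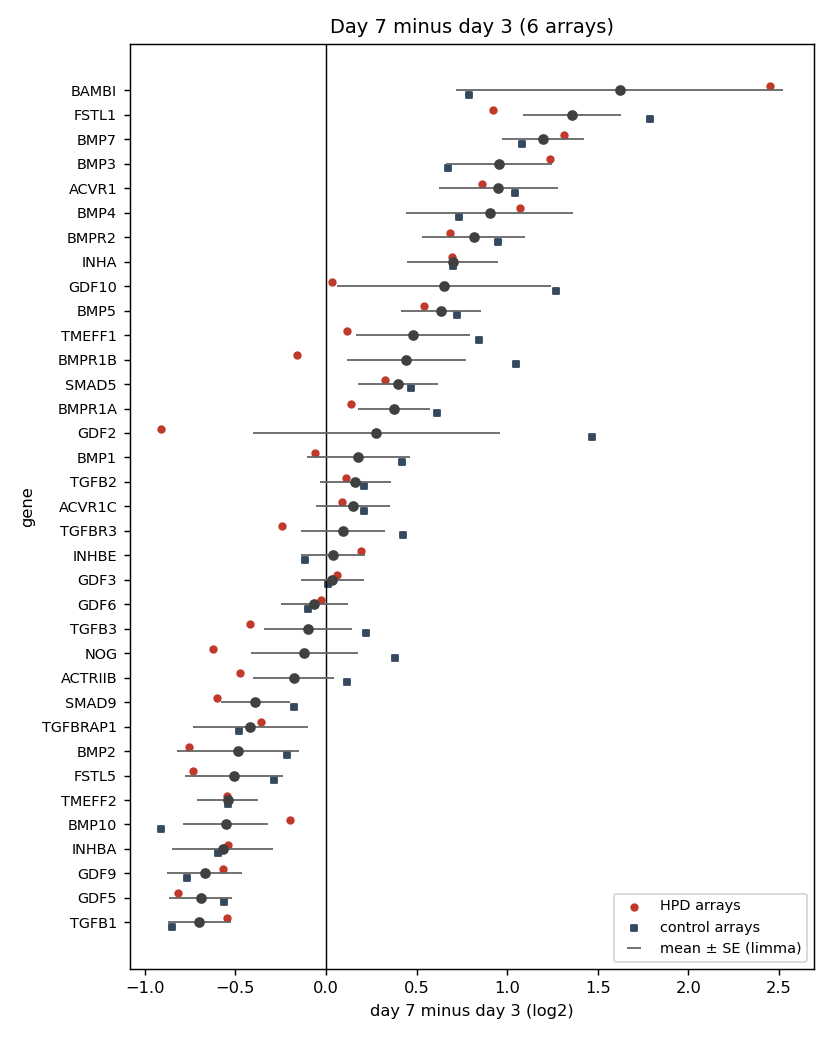
Day 7 minus day 3 (x axis, log2) for each of the 35 genes (y axis), with the difference between HPD arrays (circles), between control arrays (squares) and the limma estimate with its SE (black point and bar, 6 arrays). BAMBI, FSTL1 and BMP7 are at the top at 1.62, 1.36 and 1.20, and TGFB1 is at the bottom at -0.70. No gene passed the test.

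For day 5 minus day 3, 2 of 35 genes were higher at an unadjusted p under 0.05 (5.71%, against 6.26% of all features) and 5 lower (14.3%, against 10.1%). Both day 5 arrays lay above both day 3 arrays for 6 genes (17.1%, against 19.5%) and below for 12 (34.3%, against 26.9%). The highest were BAMBI (1.04 ± 0.90), BMP7 (0.87 ± 0.23), BMP5 (0.83 ± 0.22), BMP4 (0.80 ± 0.46) and BMP3 (0.76 ± 0.29). Without the control array of day 5, BMP4 stood at 0.02, BMP3 at 0.38, BMP5 at 0.56 and BMP7 at 0.59, and without the HPD array of day 5 they stood at 1.58, 1.14, 1.11 and 1.15. The lowest were TMEFF2 (-0.96 ± 0.17), GDF9 (-0.93 ± 0.21), BMP10 (-0.74 ± 0.23), TGFB1 (-0.72 ± 0.17) and SMAD9 (-0.62 ± 0.19). With normexp TGFB1 was the lowest of these 5 at -0.51, and TMEFF2, GDF9, BMP10 and SMAD9 stood at -0.35, -0.26, -0.33 and -0.25. Day 7 minus day 5, both on the same slide, had both later arrays above both earlier ones for 15 genes (42.9%, against 24.5% of all features) and below for 1, GDF5 (2.86%, against 15.7%). At an unadjusted p under 0.05, 1 gene, FSTL1, was higher (against 4.76%) and 0 were lower (against 3.31%). Besides FSTL1, the highest were BAMBI (0.58 ± 0.90), INHA (0.57 ± 0.25) and ACVR1 (0.50 ± 0.33), leaving out GDF10, one of the 15, whose HPD arrays of both days were at background. The lowest were TGFBRAP1 (-0.45 ± 0.32) and BMP2 (-0.31 ± 0.34). Over days 3 to 7 osteoblast markers had a median difference of 1.24, with 7 of 8 higher on day 7, granulation tissue markers one of 1.52 with 6 of 6 higher, and neutrophil markers one of -4.84 with 0 of 5 higher. Their part in the values of the family was not tested.

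Further genes of the pathway, described in other words on the array, were taken from a list of 67, of which 30 were named on the array and 29 well above background. None of the 29 was called for the HPD effect or for day 7 minus day 3. With HPD 23, 14 and 14 of 29 were higher on days 3, 5 and 7, against 64.5%, 58.7% and 56.4% of all features. The median HPD effect was 0.03, against 0.09 for all features. The order higher, lower, higher was found for 5 of 29, against 14.3% of all features, so it was not as frequent here as in the family (31.4%). TGFBR1, the type I TGF-beta receptor, had an HPD effect of 0.29 ± 0.19, and the transducer genes SMAD2, SMAD3 and SMAD4 had 0.03 ± 0.16, -0.25 ± 0.15 and -0.13 ± 0.14. SMAD1, a BMP-branch transducer, had -4.88, -4.52 and -3.93 in HPD arrays and -4.41, -3.79 and -3.49 in control arrays of days 3, 5 and 7. HPD was the lower on each day, with a mean of -0.55 ± 0.14 (adjusted p = 0.557), and day 7 was 0.94 ± 0.17 above day 3 (adjusted p = 0.126). Over time the matrix proteoglycan genes BGN and DCN, whose products bind TGF-beta, were 1.39 ± 0.32 and 1.0 ± 0.22 higher on day 7, and TGFBI, a TGF-beta-induced matrix protein, stood at -0.98 ± 0.24 (adjusted p = 0.148, 0.144 and 0.153). The BMP regulator gene BMPER had HPD differences of 0.57, -1.25 and 0.39 on days 3, 5 and 7. BMPER was well above background on 5 arrays. Its HPD signal of day 5, at -5.00, was below the lowest signal well above background on that array (-4.98).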

How the data were processed

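RNA from 6 samples was amplified from 0.2 μg and labelled with Cy3, per the labels' protocols. The deposited values are spot intensities on a linear scale, made by the authors with Agilent Feature Extraction 10.5.1.1 per the file headers, with background subtraction and no step between arrays recorded. Log2 of the processed intensity, minus the 75th percentile of each array's non-control spots, was computed here. Outlier spots were left out (41 probes), and the brightest probe stood for a gene. Genes were named through the files' columns and a RefSeq table, which matched 38 of the 39. Features well above background on at least 3 arrays were fitted with limma 3.58.1 (R 4.3.3), with day and treatment as additive terms (2 residual and 2.47 prior degrees of freedom), at an adjusted p of 0.05. The p-values measure the spread between these arrays alone, and their number limits the precision. The residual of this fit holds array noise together with variation of the HPD effect between days. An HPD difference that changes between days therefore enlarges the SE. Alternatives were normexp background correction, quantile and median scaling, other filters, averaged probes, leaving out arrays or days, and fits without the day or treatment term. The script was tested on simulated data with additive day and treatment terms. These data held no HPD effect that changed between days. Genes named with values are the family's core genes, any called, and the 5 highest and 5 lowest of each comparison. Members, lists and tests were chosen with earlier results of these data known.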

Additional observations from a re-analysis of the deposited data

Results flagged for a closer look

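BAMBI stood out because its HPD difference ran in opposite directions on 2 days, at -2.44 on day 5 and 1.31 on day 7. With 1 array per treatment and day, the difference between these days was not tested.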

How the results depend on the processing

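Of 665 values of single genes under an alternative, 634 were counted as the same. For fitted comparisons this means that direction and side of the threshold were kept. For single days it means a move below the spread of a single-day difference (0.293). Of the rest, 14 turned their sign, 2 passed the test and 15 single-day values moved by more than that spread. On single days a turn of sign was counted as such only where the reported difference was at least 2-fold. Any smaller difference that turned is among the 634 or the 15. Day, as the block, paired the HPD and control arrays in the reported fit, and without the day block 0 features were called for the HPD effect, with 899 at an unadjusted p under 0.05; the arrays carry no replicate number. The HPD effect had 0 called features under all alternatives, with 899 to 1838 at an unadjusted p under 0.05 (1720 as reported). Its sign turned for ACVR1C with the mean of all probes, 1 of them at background (-0.0721). Leaving out 1 day, it ran from -0.256 (without day 3) to 0.988 for GDF2 and, with the upper end without day 5, from -0.34 to 0.161 for BMP1, -0.713 to 0.488 for GDF10, -0.319 to 0.166 for BMPR2 and -1.39 to 0.482 for BAMBI. The median HPD effect was 0.378 on the day 3 slide and 0.0433 on the slide of days 5 and 7. Leaving out 1 array, day 5 minus day 3 of BAMBI ran from -0.419 (without control day 5) to 2.5. Day 7 minus day 5 ran from -0.476 to 0.0731 for BMP5 and -0.803 to 0.18 for BMP2 (upper end without control day 5), and from -0.148 to 1.64 for GDF10, -0.882 to 2.04 for BAMBI, -0.0218 to 1.03 for ACVR1 and -0.951 to 0.0578 for TGFBRAP1 (sign turned without HPD day 5, and for BAMBI also without HPD day 7, at -0.776).

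Called features for day 5 minus day 3 numbered 1 as reported, 297 with normexp, 0 with quantile normalization or no filter, 17 without the treatment term and 0 to 130 leaving out 1 array (130 without HPD day 3). For day 7 minus day 5 they numbered 0, 2 with normexp and 3 without the treatment term. For day 7 minus day 3 they numbered 1, 1030 with normexp, 0 with quantile normalization or no filter, 5 among features well above background on all 6 arrays, 381 without the treatment term and 0 to 240 leaving out 1 array (240 without HPD day 3). Genes of the family called there numbered 0, and 2 with normexp (FSTL1 and BMP7). Genes higher with HPD on all 3 days numbered 8 as reported, 5 with normexp or the mean of probes, 4 with quantile normalization and 2 with the median shift. The day 5 median of the family, -0.196, was 0.0123 without the filter on dim genes. Normexp moved the median of all features on day 5 to -0.101, against 0.0899 as reported. The cause of these changes was not tested.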
